A study of Mus musculus with 6 samples.

Results

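The genes described here are 32 genes listed as peroxisomal, whose proteins build the organelle or carry out its lipid chemistry. The list was chosen with earlier results of these data known. All 32 were measured, each by 1 probe set with a single gene symbol, among 19937 genes on the arrays. They comprise 13 peroxins, 3 ABC transporters of the ABCD family, 13 enzymes of peroxisomal oxidation and its accessory steps, and 3 enzymes of ether lipid synthesis. RNA came from inguinal white adipose tissue. This is a depot under the skin in which heat-producing beige adipocytes can appear. Knockout (KO) mice lacking the transcription factor Atf7 (3 arrays) were compared with wild-type (WT) littermates (3 arrays). All were males on a C57BL/6 background, bred from heterozygous parents, dissected at 5 weeks of age and untreated as far as the labels say. The whole depot was used, so the values mix adipocytes with every other cell in it, and fewer cells of a type cannot be told apart from less RNA per cell.

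Peroxisomes oxidise fatty acids that mitochondria handle poorly, among them very long, branched and dicarboxylic chains, and they hold the opening steps of ether phospholipid synthesis. Peroxins insert the membrane proteins, import folded matrix enzymes through a receptor that is recycled after each round, and divide the organelle. In rodents many of the oxidation enzymes are targets of the nuclear receptor Ppara, and peroxisomes are abundant in brown fat. Atf7 is a basic leucine zipper factor of the ATF/CREB family, whose members bind the cAMP response element (CRE).

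Values are log2 expression values as the authors deposited them, and a difference is KO minus WT. Each gene was tested with limma over all 19937 genes, with a two-sided p adjusted by the Benjamini-Hochberg method and a threshold of 0.05. The Atf7 probe set that responded to the allele was at 6.22, 6.53 and 6.49 in KO replicates 1 to 3, against 8.95, 9.20 and 9.07 in WT replicates 1 to 3, and limma, run on all probe sets, gave an adjusted p of 0.00658. Every KO array was below every WT array, as the labels require, although a block for the replicate number gave an adjusted p of 0.0792, and leaving out WT replicate 1 or WT replicate 3 gave 0.0745 or 0.147. The second Atf7 probe set differed by -0.17 (adjusted p 0.730), and which exons the allele lacks is not given in the sources used here. White adipocyte markers were among the brightest genes, with 11 measured markers at level percentiles from 94.98 to 99.95 over all genes. Their median difference was 0.14, with 8 of the 11 positive and 0 of them at an unadjusted p under 0.05. They summed to log2 values of 131.1 to 133.7 in KO arrays and 129.7 to 132.4 in WT arrays, highest in KO replicate 3 and lowest in WT replicate 3, as for many members, and their part in the members' differences was not tested. KO replicate 3 stood apart from the other 5 arrays. It correlated with them at 0.969 to 0.981 across probe sets, where the others correlated at 0.984 to 0.990 among themselves, and it was lowest in lymphocyte markers. The 22 measured B and T cell markers (of 25 listed) summed to log2 values of 134.8 to 204.9 in KO arrays and 202.3 to 208.5 in WT arrays, and 0 of them lay under the 25th percentile of gene levels. Centred on each gene's mean, the lymphocyte score was -0.10, 0.64 and -2.54 in KO replicates 1 to 3, against 0.67, 0.52 and 0.81 in WT replicates 1 to 3. The score of 12 skeletal muscle markers was 1.50, -1.32 and -1.50 in KO replicates 1 to 3, against -1.44, 2.26 and 0.51 in WT replicates 1 to 3, so these markers varied widely within both groups.

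Promoter sequence is shown for 4 members because the deleted factor belongs to a family that binds the CRE. Pex13 and Pex11g were the members whose window held a complete CRE, and Ehhadh and Pex6 are examples of members with a CRE core and no overlap between groups, KO being higher. Acox2 met both conditions too and is not printed. The other members with a core had overlapping groups, with differences from -0.18 (Far1) to 0.33 (Abcd3). Binding of Atf7 was not measured here, and a relation of these sites to the differences was not tested. RefSeq promoter windows (GRCm38.p6) were found for 26 of the 32 members. Each window ran from 250 bases before to 50 bases after an annotated start, 300 bases in all. The Pex13, Ehhadh and Pex6 lines give the 250 bases before the start, and the Pex11g line gives 30 bases across it. Capitals mark the CRE (TGACGTCA) or its core (TGACG, which reads CGTCA where it lies on the opposite strand), all printed 5′ to 3′ on the strand of the gene.
Pex13: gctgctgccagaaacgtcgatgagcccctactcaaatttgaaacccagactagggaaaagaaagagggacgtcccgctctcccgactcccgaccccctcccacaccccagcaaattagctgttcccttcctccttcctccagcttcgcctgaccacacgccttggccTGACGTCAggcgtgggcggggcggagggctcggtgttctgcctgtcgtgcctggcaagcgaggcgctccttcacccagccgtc
Pex11g: cccgccctgggTGACGTCAcgaccgagttg
Ehhadh: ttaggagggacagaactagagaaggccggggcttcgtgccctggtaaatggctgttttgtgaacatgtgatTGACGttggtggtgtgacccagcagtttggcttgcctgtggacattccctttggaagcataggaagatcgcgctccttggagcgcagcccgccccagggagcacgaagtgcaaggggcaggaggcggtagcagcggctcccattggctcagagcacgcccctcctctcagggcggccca
Pex6: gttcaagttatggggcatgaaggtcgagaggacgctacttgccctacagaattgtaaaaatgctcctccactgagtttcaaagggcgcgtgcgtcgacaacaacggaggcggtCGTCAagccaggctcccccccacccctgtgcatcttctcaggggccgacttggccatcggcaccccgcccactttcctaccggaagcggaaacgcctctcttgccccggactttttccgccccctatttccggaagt
The Pex13 stretch is chr11:23665884-23666133 on the minus strand, with its CRE at -83 to -76 from the start. The Pex11g stretch is chr8:3467634-3467663 on the minus strand, and its CRE spans the start from -4 to 4. The Ehhadh stretch is chr16:21787835-21788084 on the minus strand, with its core at -179 to -175. The Pex6 stretch is chr17:46711226-46711475 on the plus strand, with its core at -137 to -133.

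Both strands were searched. The complete CRE was in windows of 2 of the 26 members with a window, and in 1.79% of all 32851 promoter windows of the table. The core, which every complete CRE also contains, was in windows of 13 members (Abcd3, Acox2, Acox3, Ehhadh, Far1, Gnpat, Pex10, Pex11g, Pex13, Pex5, Pex6, Pex7 and Scp2), and in 20.8% of all windows. The element of Ppara was also searched as its single repeat AGGTCA, found in windows of 4 members (Cat, Pex11g, Phyh and Scp2) and in 16.3% of all windows. Its complete form, a direct repeat spaced by 1 base (AGGTCANAGGTCA), was in windows of 0 members and in 0.0396% of all windows. Several members have more than 1 window (31 windows for the 26), so these shares are not on the same footing and are given as a description.

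None of the 32 members passed the adjusted threshold, and neither did any other gene of the table (percent called 0 higher and 0 lower). Each gene stood there by its brightest probe set, which for Atf7 was the second one and not the one that responded. The smallest adjusted p among members was 0.622, and the largest 0.951. At an unadjusted p under 0.05 there were 4 members higher in KO (Ehhadh, Phyh, Pex2 and Acox2) and 0 lower, where 4.99% of all genes were higher and 2.48% lower. The 4 became 2 without KO replicate 1 (2.81% of all genes), 2 without KO replicate 3 (3.1%), 9 without KO replicate 2 (10.4%) and 1, Ehhadh, without WT replicate 3 (2.99%). A replicate block left 2 (4.6% of all genes), and so did a skeletal muscle covariate (3.07%). The difference was positive for 28 of 32 members, against 53% of all genes, and negative for Abcd2, Cat, Agps and Far1. The median difference of the 32 was 0.20, against 0.01 over all genes. The KO arrays all lay above the WT arrays in 5 members (Ehhadh, Phyh, Pex2, Pex6 and Acox2), as in 7.96% of all genes, and below in 0 members, as in 5.97% of all genes. For such a gene an exact permutation test over arrays gives 0.1, the smallest p that 3 arrays against 3 allow.

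**Figure D1:**
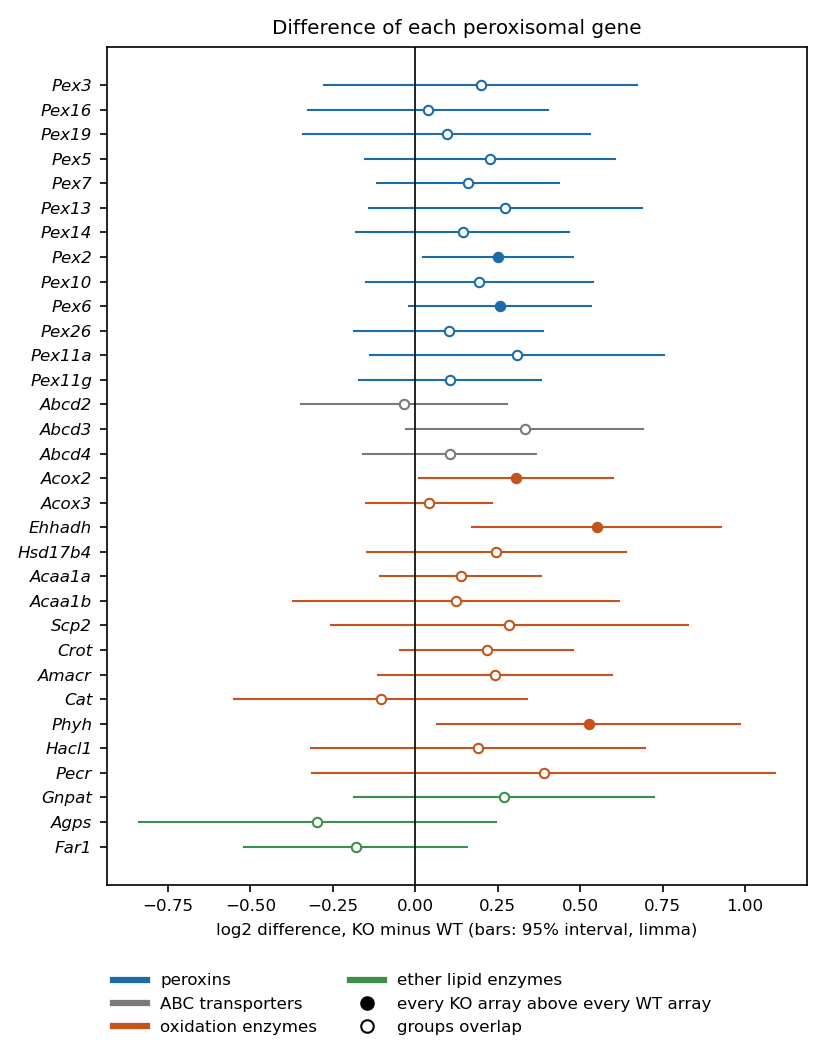
Log2 difference of each of the 32 peroxisomal genes, KO minus WT, with its 95% interval from limma. Filled points mark the 5 genes whose arrays did not overlap between groups, and most points lie right of 0, led by Ehhadh at 0.55 and Phyh at 0.53.

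Among the enzymes of beta-oxidation, Ehhadh had the smallest p of all members. It encodes the bifunctional enzyme that hydrates and dehydrogenates enoyl-CoA in the peroxisome. Ehhadh was at 9.48, 9.30 and 9.69 in KO replicates 1 to 3, against 9.13, 9.04 and 8.65 in WT replicates 1 to 3. All KO arrays were higher than all WT arrays, with WT replicate 3 the lowest. The difference was 0.55 (SE 0.16), or 1.46-fold, with an unadjusted p of 0.0106 and an adjusted p of 0.622 from limma. It ranged from 0.40 to 0.65 when each array was left out in turn, and was 0.45 without KO replicate 3.

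Acox2, the oxidase that starts the breakdown of bile acid side chains and branched chains, was at 5.67, 5.97 and 6.10 in KO replicates 1 to 3, against 5.65, 5.60 and 5.57 in WT replicates 1 to 3. The groups did not overlap, but KO replicate 1 was only just above the WT arrays, and the gene was the dimmest member, at level percentile 30.79 of all genes. Its difference was 0.30 (SE 0.12), with an unadjusted p of 0.0435, and was 0.21 without KO replicate 3. Acox3, the oxidase of branched acyl-CoA, differed by 0.04 with a 95% interval of -0.15 to 0.23, the narrowest of the 32.

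The remaining beta-oxidation genes differed by small positive amounts that did not pass, with groups overlapping. Crot, which moves shortened chains onto carnitine for export, differed by 0.22 (SE 0.11), and Amacr, the racemase that readies branched chains for oxidation, by 0.24 (SE 0.15). Hsd17b4, the second bifunctional enzyme, differed by 0.25 (SE 0.17), and Scp2, whose long product is a thiolase of branched chains and whose short product is a sterol carrier, by 0.29 (SE 0.23). The 3-ketoacyl-CoA thiolases Acaa1a and Acaa1b differed by 0.14 (SE 0.10) and 0.12 (SE 0.21). They are close paralogs, so their probe sets may share signal. Acaa1b was at 6.61, 6.65 and 6.84 in KO replicates 1 to 3, against 6.74, 6.91 and 6.08 in WT replicates 1 to 3, so that its positive difference rested on the low WT replicate 3 and was -0.12 without it.

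Catalase, Cat, removes the hydrogen peroxide that the oxidases release. It is described although the naming rule did not select it. Cat was at 12.11, 11.90 and 12.43 in KO replicates 1 to 3, against 12.09, 12.59 and 12.08 in WT replicates 1 to 3. The groups overlapped throughout, with the highest value in WT replicate 2. The difference was -0.10, with a 95% interval of -0.55 to 0.34, and was 0.06 without WT replicate 2.

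In the alpha-oxidation branch, Phyh had the second smallest p of all members. It encodes phytanoyl-CoA hydroxylase, the enzyme deficient in Refsum disease in humans. Phyh was at 10.51, 10.21 and 11.01 in KO replicates 1 to 3, against 10.15, 9.99 and 10.02 in WT replicates 1 to 3. The WT arrays lay close together and below all KO arrays, while the KO arrays were spread, with replicate 3 the highest. The difference was 0.53 (SE 0.20), or 1.44-fold, with an unadjusted p of 0.0304, and dropping KO replicate 3 gave 0.31, dropping KO replicate 2 gave 0.71. Hacl1, the lyase that follows in the same pathway, was at 8.75, 8.47 and 9.28 in KO replicates 1 to 3, against 8.52, 8.89 and 8.51 in WT replicates 1 to 3. Its KO arrays included both the highest and the lowest value of the 6, and the difference was 0.19 (SE 0.21) with all arrays and -0.03 without KO replicate 3. Pecr, an enoyl-CoA reductase of the peroxisome, was at 8.14, 7.58 and 8.31 in KO replicates 1 to 3, against 7.54, 8.20 and 7.12 in WT replicates 1 to 3. It had the widest 95% interval of the members, -0.31 to 1.09, around a difference of 0.39, and leaving out WT replicate 3 gave 0.14 while leaving out WT replicate 2 gave 0.68.

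**Figure D2:**
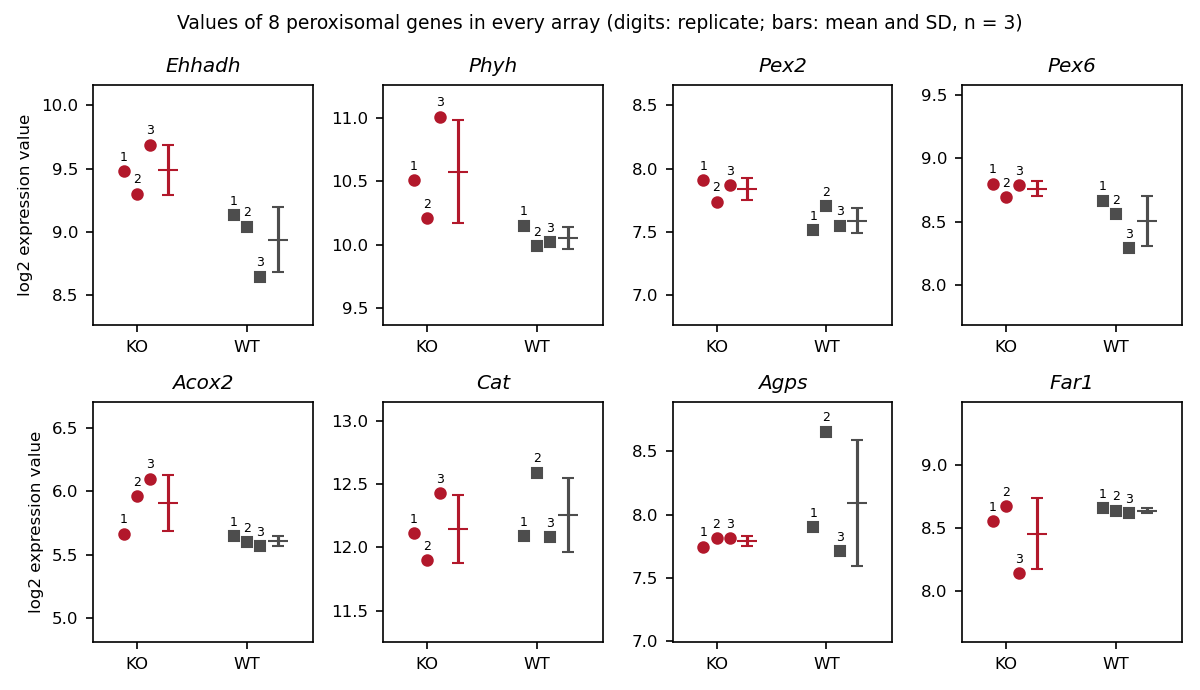
Log2 expression values of 8 peroxisomal genes in every array, KO left and WT right, with the mean and SD of each group (n = 3) beside the points and a common span of values in each panel. Ehhadh, Phyh, Pex2, Pex6 and Acox2 show no overlap, WT replicate 2 stands above the rest in Agps, and KO replicate 3 below the rest in Far1.

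The ABC transporters bring acyl-CoA into the peroxisome, except Abcd4, which works in lysosomal cobalamin export. Abcd3, the transporter of branched and dicarboxylic acyl-CoA, had the smallest p of the 3. It was at 9.06, 8.94 and 9.19 in KO replicates 1 to 3, against 8.80, 8.97 and 8.43 in WT replicates 1 to 3, with KO replicate 2 just under WT replicate 2. Its difference was 0.33 (SE 0.15), with an unadjusted p of 0.0650, and was 0.18 without WT replicate 3. Abcd2, the transporter of very long chains known for its expression in adipose tissue, was at 10.84, 10.60 and 10.95 in KO replicates 1 to 3, against 10.83, 11.01 and 10.66 in WT replicates 1 to 3. Its groups covered nearly the same range, and its difference was -0.03 with a 95% interval of -0.35 to 0.28. Abcd4 differed by 0.10 (SE 0.11).

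All 13 peroxins among the members had a positive difference, between 0.04 and 0.31, and their median was 0.19. At an unadjusted p under 0.05 from limma, 1 was higher, against 4.99% of all genes. Pex2, a RING finger subunit of the ubiquitin ligase that marks the import receptor for recycling, was that gene. It was at 7.91, 7.74 and 7.87 in KO replicates 1 to 3, against 7.52, 7.70 and 7.55 in WT replicates 1 to 3. The groups did not overlap, though KO replicate 2 and WT replicate 2 were nearly level, and KO replicate 3 was not the highest array. The difference was 0.25 (SE 0.10), with an unadjusted p of 0.0354 and an adjusted p of 0.622. Its partner in the ligase, Pex10, differed by 0.19 (SE 0.15).

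Pex6, an ATPase that pulls the marked receptor out of the membrane, was at 8.80, 8.70 and 8.79 in KO replicates 1 to 3, against 8.67, 8.56 and 8.29 in WT replicates 1 to 3. Its KO arrays lay within a narrow band above all WT arrays, and its difference was 0.26 (SE 0.12), with an unadjusted p of 0.0648. Like Pex2, it differed by a similar amount without KO replicate 3 (0.24 for both), but without WT replicate 3 the difference of Pex6 was 0.15. Pex26, the membrane anchor of that ATPase, differed by 0.10 (SE 0.12).

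KO replicate 3 was the highest of the 6 arrays in 9 of the 13 peroxins. Pex13, a docking subunit of the import pore and the carrier of the CRE shown above, was at 9.42, 9.08 and 9.76 in KO replicates 1 to 3, against 9.11, 9.29 and 9.04 in WT replicates 1 to 3. KO replicate 2 lay inside the WT range, and the difference was 0.27 (SE 0.18) with all arrays and 0.10 without KO replicate 3. Its docking partner Pex14 differed by 0.14 (SE 0.14). Pex5, the receptor that recognises most matrix enzymes by their last residues, was at 7.89, 7.83 and 8.30 in KO replicates 1 to 3, against 7.83, 7.95 and 7.55 in WT replicates 1 to 3, with only KO replicate 3 above the WT range. Its difference was 0.23 (SE 0.16), and that of Pex7, the receptor for the other targeting signal, which thiolase and Phyh carry, was 0.16 (SE 0.12).

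The genes that insert membrane proteins were Pex3, Pex16 and Pex19. Pex3, the membrane receptor of that route, was at 9.22, 8.93 and 9.75 in KO replicates 1 to 3, against 8.97, 9.16 and 9.17 in WT replicates 1 to 3. KO replicate 2 was the lowest of the 6 arrays and KO replicate 3 the highest. Its difference was 0.20 (SE 0.20), and those of Pex16 and Pex19 were 0.04 (SE 0.15) and 0.09 (SE 0.18). Without KO replicate 3 all 3 were negative, at -0.03, -0.07 and -0.09. For division, Pex11a, an elongation factor of the peroxisome membrane, was at 9.46, 9.17 and 9.75 in KO replicates 1 to 3, against 9.13, 9.44 and 8.89 in WT replicates 1 to 3. WT replicate 2 was level with KO replicate 1, and the difference was 0.31 (SE 0.19), or 0.16 without KO replicate 3. Pex11g, the other member with a complete CRE, was at 7.29, 7.12 and 7.30 in KO replicates 1 to 3, against 7.30, 6.96 and 7.14 in WT replicates 1 to 3, a difference of 0.11 (SE 0.12).

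The 3 ether lipid enzymes did not share a direction. Gnpat, which attaches the acyl chain to dihydroxyacetone phosphate in the opening step, was at 10.29, 9.92 and 10.68 in KO replicates 1 to 3, against 10.17, 10.05 and 9.86 in WT replicates 1 to 3, a difference of 0.27 (SE 0.19) that was 0.08 without KO replicate 3. Agps swaps that chain for a fatty alcohol, and Far1 makes the alcohol. Both are given in full although the naming rule did not select them. Agps was at 7.75, 7.81 and 7.82 in KO replicates 1 to 3, against 7.90, 8.65 and 7.71 in WT replicates 1 to 3. WT replicate 2 alone stood above the rest, and the difference of -0.30 (SE 0.23) was -0.01 without it. Far1 was at 8.55, 8.67 and 8.14 in KO replicates 1 to 3, against 8.66, 8.64 and 8.62 in WT replicates 1 to 3. KO replicate 3 alone stood below the rest, and the difference of -0.18 (SE 0.14) was -0.02 without it. In KO replicate 3, Gnpat was therefore at its highest and Far1 at its lowest value of the 6 arrays.

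Set side by side, the oxidation enzymes had 12 of 13 positive differences and a median of 0.24, the peroxins 13 of 13 and 0.19, the ABC transporters 2 of 3 and 0.10, and the ether lipid enzymes 1 of 3 and -0.18. The ether lipid median was -0.02 without KO replicate 3 and -0.01 without WT replicate 2. To give a group 1 level per array, its genes were each centred on their mean over the 6 arrays and then averaged. For the oxidation enzymes it was 0.08, -0.09 and 0.37 in KO replicates 1 to 3, against -0.10, 0.04 and -0.30 in WT replicates 1 to 3. The level of the peroxins was 0.05, -0.09 and 0.30 in KO replicates 1 to 3, against -0.11, 0.03 and -0.20 in WT replicates 1 to 3. In both groups of genes KO replicate 2 lay between the WT arrays, so KO and WT overlapped. The oxidation level minus the peroxin level was at most 0.06 in size in 5 arrays and -0.10 in WT replicate 3. Both levels are centred over the same 6 arrays, so this compares deviations and not amounts of RNA. Whether other lists lie as close was not tested. The ether lipid level was -0.02, -0.08 and -0.004 in KO replicates 1 to 3, against 0.03, 0.23 and -0.15 in WT replicates 1 to 3, and KO replicate 3 did not stand out in it.

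**Figure D3:**
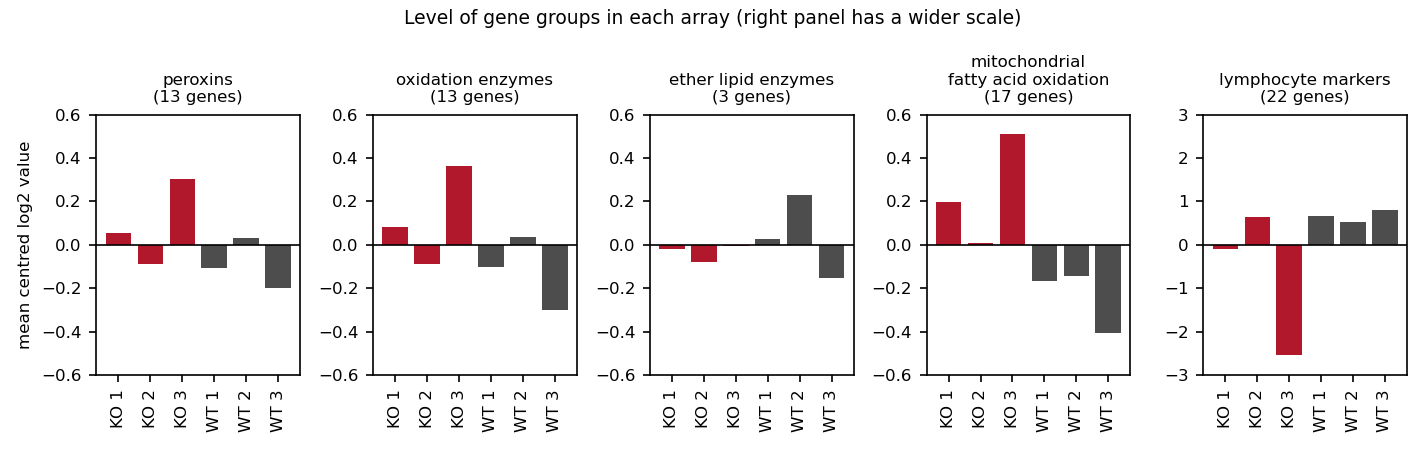
Level of 5 gene groups in each array, as the mean of centred log2 values, with KO arrays left and WT arrays right in every panel. Peroxins and oxidation enzymes are highest in KO replicate 3 (0.30 and 0.37), where lymphocyte markers are lowest (-2.54, on a wider scale).

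The same arrays set the extremes of most members. Leaving out 1 array changed the sign of the difference or moved it by over 1.5 times in 29 of the 32 members, in 24 of them when that array was KO replicate 3, and under none of the 6 omissions for Ehhadh, Pex2 and Acox2. These counts were not made over all genes, so they describe the members and do not set them apart. KO replicate 3 was the highest of the 6 arrays in 23 of 32 members, against 31.4% of all genes, and WT replicate 3 the lowest in 18, against 20.2% of all genes. Among the 53 other peroxisomal genes described below, KO replicate 3 was the highest in 40 and WT replicate 3 the lowest in 23. KO replicate 2 lay within the range of the WT arrays in 19 members, against 55.3% of all genes. KO replicate 3 was also the array with the lowest lymphocyte score, and KO replicate 2 had a score (0.64) inside the WT range. Without KO replicate 3 the median difference was 0.07 for the peroxins and 0.10 for the oxidation enzymes, against -0.005 over all genes, and 24 of 32 members were positive, against 48.5% of all genes. The 2 members at an unadjusted p under 0.05 were then Ehhadh and Phyh, where 3.1% of all genes were higher at that threshold. When the lymphocyte score was entered as a covariate, the medians of peroxins and oxidation enzymes were 0.01 and 0.05, against -0.006 over all genes. In that fit 21 of 32 members were positive, against 48.1% of all genes, and at an unadjusted p under 0.05 there were 0 higher members, against 2.3% of all genes. The covariate lies far from the other arrays in KO replicate 3, so that this fit and the one without that array are not independent of each other. The differences in it ran from -0.34 for Agps and -0.33 for Cat to 0.22 for both Pex6 and Abcd3 and 0.39 for Ehhadh, with Phyh and Pex2 at 0.21 each. The part of lymphocyte content in the members' differences was not tested beyond these fits.

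**Figure D4:**
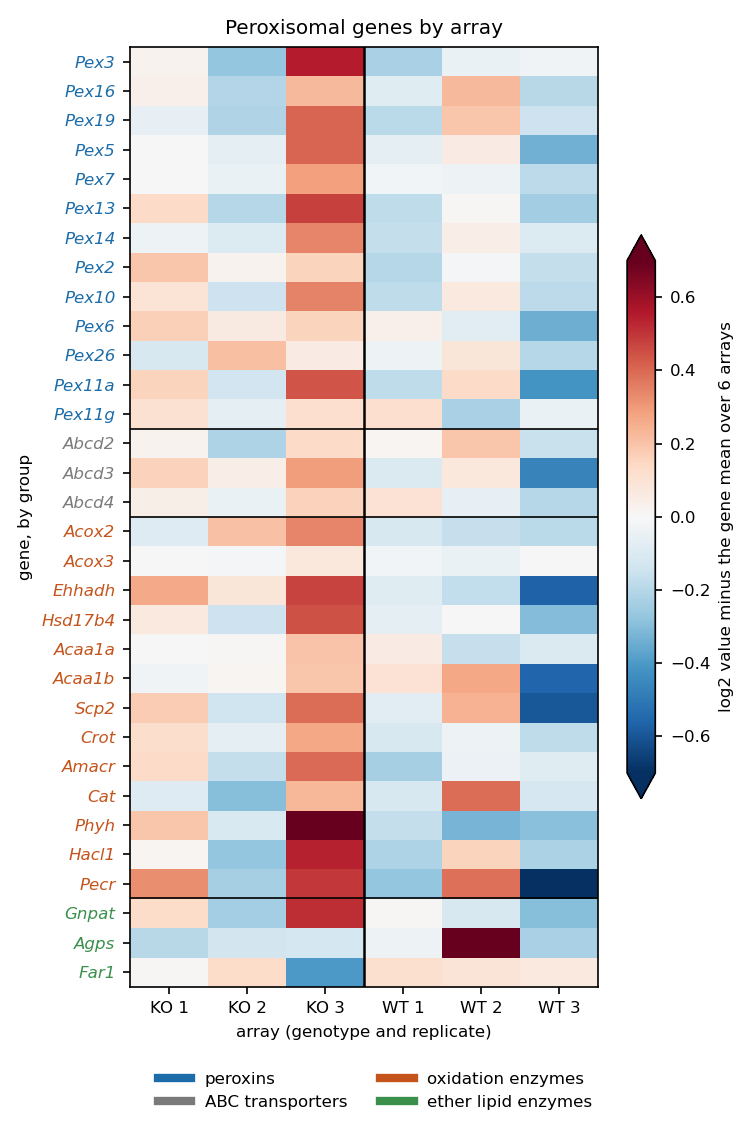
Log2 value of each of the 32 genes in each array, minus the gene's mean over the 6 arrays, with KO arrays left of the line and WT arrays right. The column of KO replicate 3 is high in 23 genes and the column of WT replicate 3 is the lowest in 18, while KO replicate 2 lies within the WT range in 19.

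**Figure D5:**
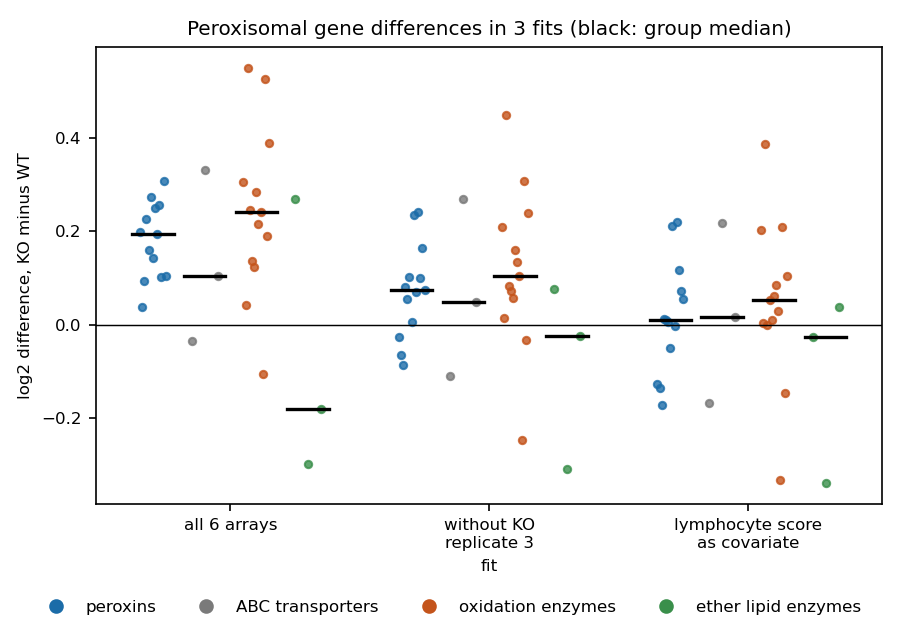
Log2 difference, KO minus WT, of the 32 genes in 3 fits, with the median of each group as a black line. The peroxin median is 0.19 with all arrays, 0.07 without KO replicate 3 and 0.01 in the fit with the lymphocyte covariate, and the oxidation median 0.24, 0.10 and 0.05.

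A wider list held 64 peroxisomal genes outside the 32, of which 11 were not analysed. The 53 measured genes had 44 positive differences, against 53% of all genes, and a median of 0.13. At an unadjusted p under 0.05, 8 were higher and 0 lower, against 4.99% and 2.48% of all genes. Without KO replicate 3 the list had 33 positive differences, against 48.5% of all genes, and a median of 0.04. In that fit 5 were higher at the same threshold, against 3.1% of all genes. In the fit with the lymphocyte covariate the list had 30 positive differences, against 48.1% of all genes, and a median of 0.02. There 4 were higher and 1 lower at the same threshold, against 2.3% of all genes higher and 320 of 19937 lower. With all arrays and no covariate, 6 of the 24 lipid enzymes in the list were higher at that threshold. Slc27a2, an acyl-CoA synthetase of very long chains that also takes up fatty acids, had the largest difference. It was at 8.12, 8.01 and 8.71 in KO replicates 1 to 3, against 7.02, 6.12 and 6.39 in WT replicates 1 to 3, which is higher in every KO array by a wide margin. The difference was 1.77 (SE 0.27), with an adjusted p of 0.494, and 1.56 without KO replicate 3. The isomerase Ech1 and the reductase Decr2, which serve unsaturated chains, differed by 0.50 (SE 0.15) and 0.45 (SE 0.14), and Hsdl2, a dehydrogenase-like protein, by 0.47 (SE 0.15). These 4 genes were named for having the smallest p in their list. Groups did not overlap, KO being higher, in 7 of the 24 lipid enzymes, these 4 among them, against 7.96% of all genes. Of 28 other matrix and membrane genes, 2 were higher at an unadjusted p under 0.05. They were Ddo, the oxidase of D-aspartate, with a difference of 0.78 (SE 0.21), and Nudt12, a hydrolase of NADH, with 0.57 (SE 0.23). Dhrs4, a carbonyl reductase, differed by 0.39 (SE 0.17), and Mpv17, first described as peroxisomal and now placed in mitochondria, by 0.29 (SE 0.15). Of 5 further peroxin and peroxin-like genes in the list, 4 were not analysed, and Pex5l differed by -0.02. None of the 53 genes passed the adjusted threshold.

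Among 11 measured regulators of peroxisomal and oxidative genes, 3 were higher at an unadjusted p under 0.05, against 4.99% of all genes. Ppara, the receptor for which peroxisome proliferators are named, was at 9.44, 8.95 and 9.48 in KO replicates 1 to 3, against 8.58, 7.73 and 7.54 in WT replicates 1 to 3. All KO arrays were above all WT arrays, and the difference was 1.34 (SE 0.28), or 1.25 without KO replicate 3, with an adjusted p of 0.622. The coactivators Ppargc1a and Ppargc1b differed by 0.86 (SE 0.24) and 0.67 (SE 0.18), also without overlap. KO arrays all lay above WT arrays in 3 of the 11 regulators, these genes, against 7.96% of all genes. Esrra, a receptor that works with them, differed by 0.33 (SE 0.16), and Pparg, the adipogenic relative of Ppara, by 0.40 (SE 0.20), both with groups overlapping. The difference of Ppara was larger than that of any of the 32 members. The part of Ppara and of the other regulators in the members' differences was not tested.

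Markers of thermogenic adipocytes are given beside these genes. Ppargc1a is also among the regulators above, and Cpt1b, which is listed as a marker too, was not analysed. None of the 9 measured markers passed the adjusted threshold (smallest adjusted p 0.237 from limma). The median difference of the 9 was 0.86, and 6 were higher in KO at an unadjusted p under 0.05, against 4.99% of all genes. Elovl3, named after its values were seen, was negative (-0.06), while the other 8 were positive. Its KO arrays all lay below its WT arrays, as in 5.97% of all genes. The margin was slight, with KO replicate 2 at 4.934 and WT replicate 1 at 4.936, and the gene was dim (level percentile 16.27). Of the 9, 2 lay under the 25th percentile of gene levels. They summed to log2 values of 74.53 to 79.17 in KO arrays and 65.63 to 69.63 in WT arrays. Their centred level was 0.47, 0.27 and 0.78 in KO replicates 1 to 3, against -0.28, -0.51 and -0.72 in WT replicates 1 to 3, without overlap. Their part in the members' differences was not tested.

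The mitochondrial pathway of fatty acid oxidation is set beside the peroxisomal one. Its 17 measured genes had a median difference of 0.49 and 16 positive values, 11 of them at an unadjusted p under 0.05, while the 13 peroxisomal oxidation enzymes had a median of 0.24 and 3 genes at that threshold, and 4.99% of all genes were higher at it. Without KO replicate 3 these medians were 0.32 and 0.10, and in the fit with the lymphocyte covariate 0.26 and 0.05. Of the 17 mitochondrial genes, KO replicate 3 was the highest array in 16, against 31.4% of all genes. WT replicate 3 was the lowest array in 16, against 20.2% of all genes. KO replicate 2 lay above all WT arrays in mitochondrial level (0.01, against -0.41 to -0.14 in WT) and between them in peroxisomal oxidation level. The difference between the pathways was not tested, since both are read from the same 6 arrays and the lists were chosen with results known.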

How the data were processed

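RNA of 6 mice was measured on 6 Affymetrix arrays, 3 KO and 3 WT, grouped by sample title. The table the authors deposited holds log2 values for 34760 probe sets. Per the submitters' processing notes, the tools were RMA, affy and limma; versions, options and build are not given in the sources used here. RMA forces similar distributions on the arrays and so hides a change common to most genes. The values span 1.44 to 14.15, array medians lie between 6.41 and 6.49, and precision is limited by the number of arrays.

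Gene names came from the platform annotation, in which 21640 probe sets have 1 symbol. A gene was represented by its brightest probe set over all arrays. KO was compared with WT by limma 3.58.1 in R 4.3.3 (lmFit, eBayes, two-sided) over 19937 genes without a filter, and the test was tested on simulated data. SE and 95% intervals are limma's.

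Members, lists and tests were chosen with earlier results of these data known. Full values were given for members at an unadjusted p under 0.05 and, in functional groups without one, for the member with the smallest p. Up to 4 genes with the smallest p were named per further list, besides Ppara, Pparg and Ppargc1a. Genes given outside this rule are Acaa1b, Hacl1, Pecr, Pex11g, Abcd2, Cat, Agps and Far1, chosen after their values were seen. Alternatives were 2 other normalizations, a filter on dim genes, mean probe sets, eBayes with a trend, the replicate number as a block, marker scores as covariates and leaving out each array.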

Additional observations from a re-analysis of the deposited data

How the results depend on the processing

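No member passed the adjusted threshold under any of the 15 fits run. Over all genes 0 passed with all arrays, where 1489 had an unadjusted p under 0.05, and 1 passed when the probe sets of a gene were averaged. The 4 members at an unadjusted p under 0.05 became 2 with the replicate block (4.6% of all genes), 2 with the skeletal muscle score as a covariate (3.07%) and 0 with the lymphocyte score (2.3%), and 1 (without WT replicate 3) to 9 (without KO replicate 2) with each array left out. Ehhadh was among them in every fit except the one with the lymphocyte score. The lymphocyte covariate moved the medians of peroxins, oxidation enzymes and ether lipid enzymes to 0.0108, 0.0524 and -0.0255. Leaving out each array gave medians from 0.07 to 0.29 for peroxins, 0.10 to 0.37 for oxidation enzymes and -0.289 to -0.0146 for ether lipid enzymes. The cause of these shifts was not tested. The Atf7 difference of -2.66 lost its call with the replicate block (-2.66), and leaving out each array gave -2.72 to -2.57, with the call lost without WT replicate 1 and without WT replicate 3.

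Signs turned in 19 of 630 values, all of genes that did not pass. With the lymphocyte score these were Pex3 (-0.13), Pex16 (-0.14), Pex19 (-0.17), Pex14 (-0.0497), Pex10 (-0.0013), Hsd17b4 (-0.00025), Hacl1 (-0.14), Gnpat (-0.0255) and Far1 (0.0392). By leaving out arrays, the range was -0.0261 to 0.384 for Pex3, -0.0653 to 0.160 for Pex16, -0.0859 to 0.223 for Pex19, -0.121 to 0.0627 for Abcd2, -0.12 to 0.29 for Acaa1b, -0.247 to 0.0634 for Cat and -0.0320 to 0.372 for Hacl1. The labels do not say whether the replicate numbers pair the mice. Deviations of same-numbered arrays correlated at -0.14, -0.08 and -0.04. With so few arrays in each group, these values cannot decide whether same-numbered mice shared a litter or batch.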
